A study of Mus musculus with 240 samples.

Results

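The genes described here are 37 interferon-stimulated genes of the mouse, chosen by gene symbol with earlier results of these data known. All 37 symbols were found among the 34623 genes of the deposited count table. Interferons are secreted proteins that cells release when they sense viral or misplaced nucleic acid. They bind receptors that act through JAK kinases and STAT proteins, and a complex that holds STAT2 and IRF9 then switches on a shared set of antiviral and antigen-handling genes. In the brain, microglia, astrocytes and endothelial cells as well as neurons can respond, and many interferon-stimulated genes keep a low level of expression without infection.

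The study followed oligodendrocyte precursor cells (OPCs, the dividing glial progenitors of the brain) in a mouse model of glioma that loses the tumour suppressors Trp53 and Nf1. The bulk libraries came from tdT-positive cells cut from 10 µm brain sections by laser capture, and each animal is the unit of replication. The 37 animals fall into 6 groups, with times counted in days after the start of tamoxifen (dpi). Wild-type animals were taken at 12 dpi (n = 5), 90 dpi (n = 5) and 150 dpi (n = 6). Trp53-/- Nf1-/- animals, called CKO in the labels, were taken at 12 dpi (n = 7) and 90 dpi (n = 7). Brain tumour cells, also Trp53-/- Nf1-/-, were taken at 150 dpi (n = 7). Each group held both sexes, and tamoxifen timing was counted in wild-type animals too. The Cre driver, the reporter and the age of the animals at tamoxifen are not given in the sources used here. A second set of libraries held 10 cells each, or came from a pool of captured cells split into equal parts, all from Trp53-/- Nf1-/- OPCs cut from 8 µm sections. There were 56 10-cell and 40 pool-and-split libraries at 12 dpi and as many at 90 dpi.

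Bulk libraries held about 93640 to 23200000 counts (median 9999000), and 11 animals, among them all 7 tumours, had 2 libraries that were summed. Levels of animals are given in CPM, counts per 1000000 counts of the animal's total after edgeR's TMM scaling, which corrects totals for differences in composition. Levels of single libraries are on their unscaled totals. Animals are named by group and label number. WT_21167 at 90 dpi was the shallowest, and 1 count there is worth about 10 CPM. Nf1 was lower in CKO than in wild-type animals, by 0.66 on the log2 scale at 12 dpi (SE 0.14, edgeR quasi-likelihood adjusted p = 0.15) and by 0.64 at 90 dpi (SE 0.14, adjusted p = 0.126). It was lower by 0.43 in tumours than in wild type at 150 dpi (SE 0.13, adjusted p = 0.00838). The log2 difference of Trp53 was -0.05 at 12 dpi (adjusted p = 1.00), 0.06 at 90 dpi (adjusted p = 1), and 0.78 in tumours (adjusted p = 0.00801). Which exons the deletion removes is not given in the sources used here, and counts over a whole gene include the exons left in place, so that they do not check the genotype labels. The summed CPM of 12 OPC markers ran from 1858 to 3521 in the 30 animals without a tumour and from 4390 to 8810 in the tumours. The same 30 animals held 6710 to 16010 summed CPM of 10 neuron markers, against 265 to 1457 in the tumours, so the tdT-positive captures without a tumour also carried neuronal RNA. In these bulk captures, fewer cells of a type and less RNA per cell cannot be told apart.

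The members are read below in 9 groups by role, and their promoters show the sequence that the pathway's factors bind. The interferon-stimulated response element (ISRE) was searched with the letters GAAANNGAAA on both strands, in windows from 250 bases before to 50 bases after each RefSeq start site (GRCm38.p6). RefSeq windows were at hand for 27 of the 37 members (32 windows). The ISRE letters were found in 14 of those 32 windows (43.75%), each from a different member, and in 3.44% of all 32851 windows of the same length. The letters TTCNNNGAA, the core of the GAS element of interferon gamma targets, were found in 7 of the 32 windows (21.9%) and in 8.30% of all windows. Such a match is a description of the letters and not of binding. The 4 promoters below are shown because the values turn on these genes: 3 members with repeated ISRE letters that rose in tumours, and Xaf1, the member with the smallest p before tumours. Capitals mark the ISRE letters.
Isg15 (chr4:156200769-156201068, minus strand): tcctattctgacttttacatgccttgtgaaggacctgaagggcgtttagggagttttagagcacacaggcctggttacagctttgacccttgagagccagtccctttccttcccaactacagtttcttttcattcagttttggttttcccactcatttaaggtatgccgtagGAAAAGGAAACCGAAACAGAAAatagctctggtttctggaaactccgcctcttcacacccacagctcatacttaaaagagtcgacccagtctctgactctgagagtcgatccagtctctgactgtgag
Ifit1 (chr19:34640639-34640938, plus strand): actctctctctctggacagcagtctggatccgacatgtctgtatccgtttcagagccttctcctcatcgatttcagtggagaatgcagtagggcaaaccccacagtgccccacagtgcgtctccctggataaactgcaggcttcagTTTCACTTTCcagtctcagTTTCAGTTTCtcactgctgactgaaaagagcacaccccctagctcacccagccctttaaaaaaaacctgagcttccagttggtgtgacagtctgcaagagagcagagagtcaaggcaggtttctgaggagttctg
Oas1a (chr5:120907476-120907775, minus strand): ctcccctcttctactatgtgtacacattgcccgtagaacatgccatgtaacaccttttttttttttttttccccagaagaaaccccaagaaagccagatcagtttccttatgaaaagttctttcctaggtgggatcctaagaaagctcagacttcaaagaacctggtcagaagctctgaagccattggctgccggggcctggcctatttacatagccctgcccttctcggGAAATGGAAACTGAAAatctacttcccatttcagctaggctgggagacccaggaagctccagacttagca
Xaf1 (chr11:72301379-72301678, plus strand): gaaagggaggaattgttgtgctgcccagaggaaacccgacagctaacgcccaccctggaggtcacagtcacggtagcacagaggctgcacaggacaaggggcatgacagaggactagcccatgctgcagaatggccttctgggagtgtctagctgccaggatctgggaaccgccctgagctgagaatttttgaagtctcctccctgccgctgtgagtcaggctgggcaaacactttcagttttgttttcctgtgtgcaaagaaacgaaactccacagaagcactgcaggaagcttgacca

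Isg15 held 3 overlapping matches, which start at -78, -72 and -66 from the start site. Ifit1 held 2 separate matches on the opposite strand, at -104 and -85, and Oas1a held 2 overlapping matches at -20 and -14. The Xaf1 window held none of these letters and no GAS letters. Matches also lay in the windows of Bst2, Ddx58, Eif2ak2, Gbp2, Gbp3, Ifih1, Ifit3, Ifitm3, Oas3, Rsad2 and Stat2. The 37 members lie at their GRCm38 positions in the annotation, 36 as protein-coding genes and Mx2 as a polymorphic pseudogene, that is, a gene that is broken in some mouse strains. For 12 members another gene matches 95% or more of the bases along 50% or more of whichever transcript is shorter, among them Ifit3 with Ifit3b (97.8%), Oas1a with Oas1g (97.6%) and Mx1 with Mx2 (95.3%), so that reads of these pairs may be split between copies. Exons of 9 members overlap a gene on the other strand, the longest being the 458 bases that Dtx3l and Parp9 share, and the strand setting of the counting is not given in the sources used here.

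The first comparison asked how tumour cells differed from wild-type cells at 150 dpi. All 37 members were higher in tumours (edgeR quasi-likelihood test, adjusted p under 0.05 over 16349 genes), where 25.4% of all genes tested were called higher. Because the members were chosen with earlier results of these data known, the contrast with all genes is a description. The median log2 difference was 3.40 over the members and 0.10 over all genes tested. The smallest was 1.19 for Mx2 and the largest 6.17 for Oas1a. The members passed the filter on low counts partly through the tumours themselves: 35 of 37 also passed without them, and Oas1a and Oas2 did not. Against CKO cells at 90 dpi, which share the genotype of the tumours, all 37 members were again higher, with 27% of all genes called higher, a median of 3.31 over the members and 0.14 over all genes. The calls there for Dhx58 (adjusted p = 0.042) and Mx2 (adjusted p = 0.031) did not hold in some alternatives. When edgeR fitted only the groups compared, both were lost (adjusted p = 0.0856 and 0.262). Both comparisons use the same 7 tumours.

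**Figure D1:**
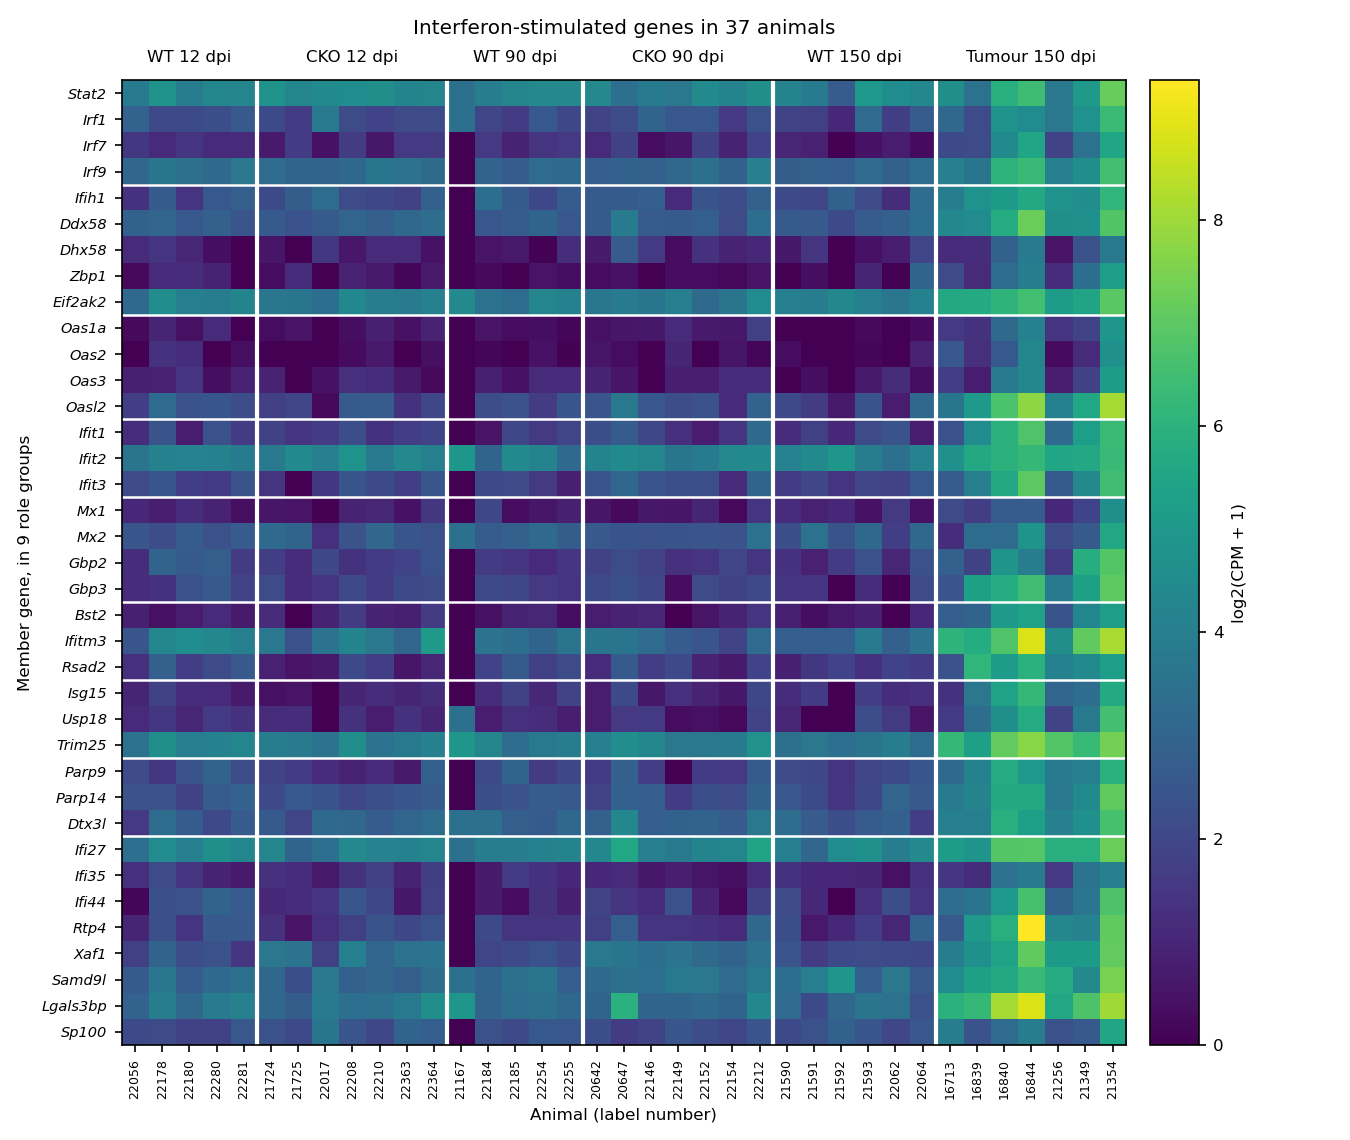
Level of each member (rows, grouped by role) in each of 37 animals (columns, by group and label number), as log2(CPM + 1) by colour. The 7 tumour columns at the right are brighter than the rest for nearly every row, most of all Tumor_16844 and Tumor_21354, which held the highest level of 36 of the 37 members on this TMM-scaled level.

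The transcription factors that carry the response rose with a median log2 difference of 2.64 (4 of 4 members). Stat2, a subunit of the interferon-activated complex, lay at 10.3, 32.5 and 144.7 CPM in tumours (lowest, median and highest of 7) and at 5.41, 18.4 and 30.8 CPM in wild type at 150 dpi (n = 6). The groups overlapped, and the log2 difference was 1.504 (SE 0.40, adjusted p = 0.00218). When edgeR fitted only the groups compared, it was again 1.504 but was not called (adjusted p = 0.0531). Irf7, the factor that amplifies interferon production, lay at 2.76, 10.4 and 44.9 CPM in tumours and at 0, 0.52 and 1.00 CPM in wild type. Every tumour lay above every wild-type animal, and the log2 difference was 5.23 (SE 0.72, adjusted p = 2.1e-07). Irf9, the DNA-binding partner of STAT2, and Irf1, which also answers interferon gamma, rose by 2.60 and 2.68 on the log2 scale.

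The sensors of viral RNA and DNA and the kinase PKR rose with a median of 2.57 (5 of 5). Eif2ak2, which encodes PKR, a kinase that stops translation when it meets double-stranded RNA, lay at 34.2, 51.2 and 125.0 CPM in tumours and at 11.9, 15.3 and 19.5 CPM in wild type. Ddx58, which encodes the RNA sensor RIG-I, lay at 19.9, 24.8 and 148.8 CPM in tumours and at 3.25, 5.33 and 9.33 CPM in wild type. Neither gene's groups overlapped, and the log2 differences were 2.11 (SE 0.27, adjusted p = 3.7e-08) for Eif2ak2 and 3.25 (SE 0.42, adjusted p = 4.5e-08) for Ddx58. Ifih1, which encodes the related sensor MDA5, rose by 2.96. Dhx58 and Zbp1 rose by 2.24 (SE 0.78, adjusted p = 0.0177) and 2.57 (SE 0.85, adjusted p = 0.0126), and both differences turned on WT_22064. Without that animal they were 3.22 for Dhx58 and 5.17 for Zbp1, which stood at 7.00 CPM there and at no more than 0.948 CPM in the other wild-type animals of that time.

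The oligoadenylate synthetases, which make the messenger that activates the RNA-cutting enzyme RNase L, rose with a median of 4.62 (4 of 4), 2 of which, Oas1a and Oas2, passed the filter on low counts only through the tumours. Oasl2, a relative in the same family, lay at 11.5, 47.4 and 274.4 CPM in tumours and at 0.54, 2.71 and 7.82 CPM in wild type. The groups did not overlap, with a log2 difference of 4.66 (SE 0.67, adjusted p = 4.1e-07). Oas1a lay at 1.58, 2.83 and 29.2 CPM in tumours and at 0 CPM in 4 of 6 wild-type animals, with 0.190 and 0.206 CPM in the others. Its log2 difference was 6.17 (SE 0.92, adjusted p = 8.0e-07), a value that rests on very few counts in wild type. Oas2 and Oas3 rose by 4.39 and 4.59, and without WT_22064 the value for Oas2 was 6.79.

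The IFIT genes, whose proteins bind foreign RNA ends, rose with a median of 3.88 (3 of 3). Ifit2 lay at 24.7, 49.1 and 79.6 CPM in tumours and at 9.58, 16.7 and 29.8 CPM in wild type, with a log2 difference of 1.67 (SE 0.26, adjusted p = 2.3e-06) and overlapping groups. Ifit1 lay at 4.13, 35.5 and 110.0 CPM in tumours and at 0.686, 1.84 and 4.29 CPM in wild type, with a log2 difference of 4.41 (SE 0.66, adjusted p = 9.8e-07). A single tumour, the lowest, lay below the highest wild-type animal for Ifit1. Ifit3 rose by 3.88, and its copy Ifit3b, which is no member, rose by 2.24 (SE 0.50, adjusted p = 3.1e-04).

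The dynamin-like GTPases, which act on viral particles and on membranes around parasites, rose with a median of 3.29 (4 of 4). Gbp3 lay at 4.58, 39.2 and 130.7 CPM in tumours and at 0, 1.48 and 3.36 CPM in wild type, without overlap and with a log2 difference of 5.04 (SE 0.62, adjusted p = 1.9e-08). Gbp2 rose by 3.70 and Mx1 by 2.88, and without Tumor_21354 the values were 2.70 and 1.86. Mx2 lay at 1.34, 8.55 and 47.4 CPM in tumours and at 2.31, 6.04 and 10.3 CPM in wild type. Its groups overlapped widely, and the adjusted p of 0.0429 at a log2 difference of 1.19 (SE 0.49) was lost without Tumor_21354 (0.60, adjusted p = 0.283). The call was also lost in many other alternatives, among them fitting only the groups compared (1.05, adjusted p = 0.202). The adjusted p of 0.0429 was the largest of the 37 members.

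The membrane and lipid restriction factors rose with a median of 4.26 (3 of 3). Ifitm3, which blocks the fusion of viruses with endosomes, lay at 23.8, 107.5 and 464.6 CPM in tumours and at 5.95, 6.14 and 13.4 CPM in wild type (log2 difference 4.26, SE 0.55, adjusted p = 5.0e-08). Bst2, or tetherin, which holds budding particles at the cell surface, lay at 4.46, 18.5 and 40.6 CPM in tumours and at 0, 0.646 and 1.10 CPM in wild type (log2 difference 4.98, SE 0.64, adjusted p = 5.7e-08). Neither gene's groups overlapped. Rsad2, which encodes the antiviral enzyme viperin, rose by 4.14.

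The ISG15 system attaches the ubiquitin-like protein ISG15 to other proteins, and its members rose with a median of 4.18 (3 of 3). Trim25, a ubiquitin ligase that activates RIG-I, lay at 38.2, 114.6 and 203.6 CPM in tumours and at 8.85, 10.6 and 14.5 CPM in wild type. The groups did not overlap, with a log2 difference of 3.40 (SE 0.31, adjusted p = 1.6e-11). Usp18, which removes ISG15 and damps receptor signalling, lay at 2.01, 12.6 and 92.9 CPM in tumours and at 0, 0.706 and 3.60 CPM in wild type. Its groups overlapped, with a log2 difference of 4.41 (SE 0.82, adjusted p = 2.9e-05), which was 3.75 without Tumor_21354 and 5.35 without WT_21593. Isg15 itself lay at 1.56, 12.0 and 74.2 CPM in tumours and at 0, 1.35 and 2.37 CPM in wild type, with overlapping groups (log2 difference 4.18, SE 0.68, adjusted p = 3.8e-06).

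The PARP enzymes and their partner DTX3L, which modify proteins with ADP-ribose and ubiquitin, rose with a median of 3.15 (3 of 3). Parp14 lay at 12.3, 21.0 and 133.6 CPM in tumours and at 1.62, 4.00 and 7.27 CPM in wild type, without overlap (log2 difference 3.34, SE 0.45, adjusted p = 1.4e-07, and 2.70 without Tumor_21354). Parp9 and Dtx3l, which share exonic bases on opposite strands, rose by 3.15 and 2.85.

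The 8 remaining members rose with a median of 3.502 (8 of 8). Lgals3bp, a secreted glycoprotein, lay at 46.7, 104.7 and 461.9 CPM in tumours and at 3.24, 8.16 and 11.0 CPM in wild type, without overlap (log2 difference 4.63, SE 0.59, adjusted p = 4.3e-08). Rtp4, a chaperone of membrane receptors, lay at 5.14, 31.7 and 653.5 CPM in tumours and at 0.541, 1.68 and 6.65 CPM in wild type. The groups overlapped, and the log2 difference of 5.41 (SE 0.86, adjusted p = 2.7e-06) was 4.00 without Tumor_16844 and 6.12 without WT_22064. Sp100, a component of nuclear bodies, rose by 1.67, and by 0.91 without Tumor_21354 (adjusted p = 0.0310). Ifi27, Ifi35, Ifi44, Samd9l and Xaf1 rose by 2.22, 2.89, 4.27, 2.35 and 4.11.

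**Figure D2:**
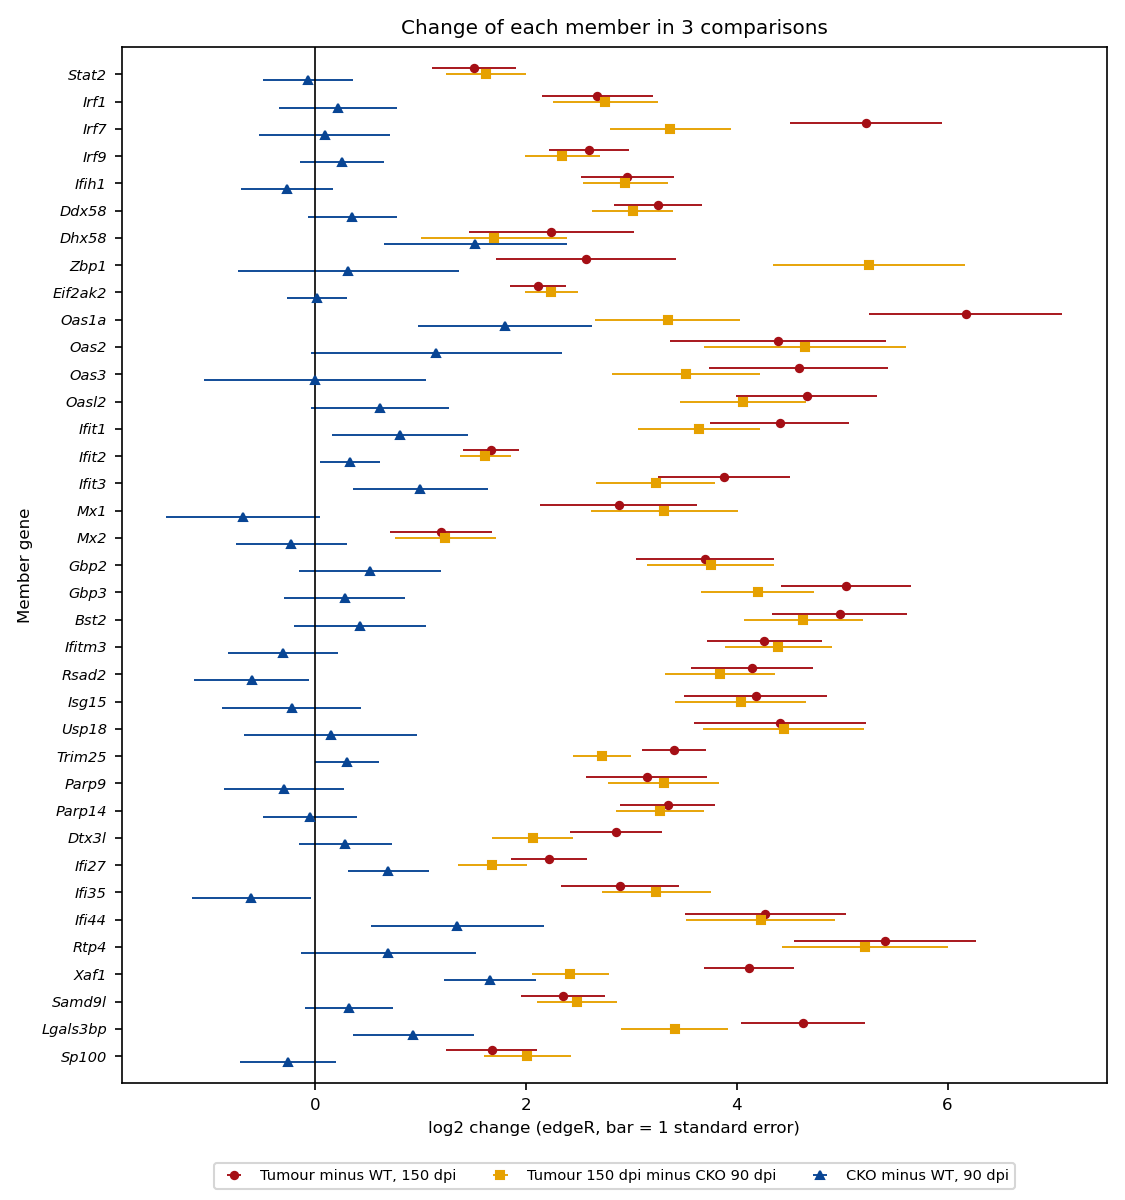
log2 change of each member (rows) in 3 comparisons from the edgeR model, with bars of 1 standard error and a line at 0. The tumour points run from 1.19 to 6.17, right of 0 for all 37 members, whereas the points for CKO against wild type before tumours scatter on both sides of 0.

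Levels of different genes were set side by side after division by the length of all annotated exons. This assumes that counts grow with that length, which was not tested for these T7-amplified libraries. Undivided means in tumours were 182.5 CPM for Lgals3bp, 162.4 for Ifitm3, 116.3 for Trim25 and 28.1 for Isg15, so the order depends on the division. In tumours the mean level per kilobase of exon was highest for Ifitm3 (239.5 CPM per kb), then Lgals3bp (64.1), Rtp4 (61.7), Ifi27 (54.8) and Isg15 (37.2). In wild type at 150 dpi, Ifitm3 (11.9 CPM per kb) and Ifi27 (11.8) were nearly equal at the top, and Oas1a was at the bottom (0.0350).

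The animals' own levels were also compared without a model. Every tumour lay above every wild-type animal of 150 dpi for 20 members (7.03% of all genes tested showed this), above every CKO animal of 90 dpi for 15 (6.84%), and above all 30 animals without a tumour for 8 (3.19%). Those 8 were Irf7, Ifih1, Ddx58, Eif2ak2, Bst2, Trim25, Parp9 and Parp14. Without TMM scaling the counts were 21 members (7.77% of all genes tested), 16 (7.69%) and 10 (3.48%), with Irf7 no longer above all 30 and Gbp3, Oasl2 and Xaf1 added. For each of the 37 members at least 2 tumours lay above all 30 other animals on both scales. How many of all genes did so is not given here, so this count is a description only.

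Whether the tumour difference exceeded that of the CKO cells before tumours was tested as the difference of the 2 genotype effects, tumour against wild type at 150 dpi minus CKO against wild type at 90 dpi. It was above 0 for all 37 members and called higher for 33 of them, with 15.2% of all genes called higher. The median was 3.23 over the members and 0.09 over all genes. Dhx58 (0.72, adjusted p = 0.689), Zbp1 (2.26, adjusted p = 0.237), Oas2 (3.25, adjusted p = 0.133) and Mx2 (1.42, adjusted p = 0.133) did not pass. The calls for Ifi44 and Stat2 were lost when edgeR fitted only the groups compared (adjusted p = 0.0556 and 0.0902). The largest value was that of Irf7 (5.14, SE 0.93, adjusted p = 4.3e-05). It holds 2 parts: a log2 difference of 3.37 between tumours and CKO at 90 dpi, and one of -1.77 between wild type at 150 and 90 dpi. The latter was not called, and Irf7 reached at most 1.00 CPM in wild type at 150 dpi. The tumour groups differ from the 90 dpi groups in time as well as in tissue state, and the 2 cannot be told apart.

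Tumours differed widely among themselves. The CPM summed over the 37 members was 3851 in Tumor_16844, 3633 in Tumor_21354, 1870 in Tumor_16840, 1054 in Tumor_21349, 758 in Tumor_16839, 662 in Tumor_21256 and 565 in Tumor_16713. All 7 lay above the range of 134 to 337 in the other 30 animals, and the highest tumour was 6.82 times the lowest. On unscaled totals the 3 lowest tumours held 657 (Tumor_16839), 647 (Tumor_16713) and 636 (Tumor_21256), so that their order depends on the scaling, while all 7 still lay above the 130 to 327 of the other animals. These 3 were also the shallowest tumours, with 8763238 counts in Tumor_16839, 7814922 in Tumor_16713 and 4906198 in Tumor_21256. The other tumours held 24009936 to 31338090 counts. The part of depth in the range of the tumours' member sums was not tested. Tumor_16844 and Tumor_21354 were the top 2 for 30 members, and the median member differed 16.3-fold between its highest and lowest tumour. Rsad2 peaked in Tumor_16839 on the scaled level, and without the scaling Tumor_16844 or Tumor_21354 was highest for all 37 members. All 37 members lay above the other 30 animals in Tumor_16844 and Tumor_21354, but 35 did in Tumor_16840, 31 in Tumor_21349, 21 in Tumor_16839, 17 in Tumor_21256 and 14 in Tumor_16713 (22 without the scaling). Matching shares of all genes are not given here for single tumours.

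The 2 libraries of a tumour gave similar levels. On unscaled totals, the member sums of a tumour's 2 libraries differed by 1.01 to 1.32 times, far less than the tumours differed from each other. Over all 11 animals with 2 libraries the ratio ran from 1.00 to 2.10, the widest being CKO_20647 at 90 dpi.

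Cell-type markers also differed between tumours and the other animals, some higher and some lower. The summed CPM of 14 microglia markers was 371 to 1357 in tumours and 140 to 296 in the other 30 animals, and 13 of the 14 were called higher in tumours than in wild type at 150 dpi. The 8 macrophage markers summed to 25.9 to 607 in tumours and 0 to 44.9 elsewhere, with 4 of 8 called higher than in wild type and 6 of 8 higher than in CKO at 90 dpi. The 10 T and NK cell markers summed to 2.24 to 32.6 in tumours and 0 to 4.59 elsewhere, and Cd2, Cd3g, Gzmb and Prf1 were at 0 in wild type at 150 dpi. Of the 4 T and NK cell markers tested, Cd4 was called higher than in wild type, and all 4 (Cd3d, Cd8a, Cd4 and Trac) were called higher than in CKO at 90 dpi, by 2.73 to 5.32 on the log2 scale. Against wild type, the 12 OPC markers were called higher in 10 cases, and 8 of 10 neuron markers were called lower. Of 10 markers each, astrocyte markers were called higher in 5 cases and lower in 3, oligodendrocyte markers in 1 and 6, and endothelial markers in 1 and 2.

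Within the tumours the marker sums and the member sums did not share 1 order. Microglia markers summed to 1357 in Tumor_21354 and 1094 in Tumor_16844, the tumours with the highest member sums, but to 810 in Tumor_16713, among the 3 with the lowest. Macrophage markers summed to 607 in Tumor_21354, 580 in Tumor_16713 and 342 in Tumor_21349, and to 55.4 in Tumor_16844. The part of immune cells in the tumours' member levels was not tested.

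**Figure D3:**
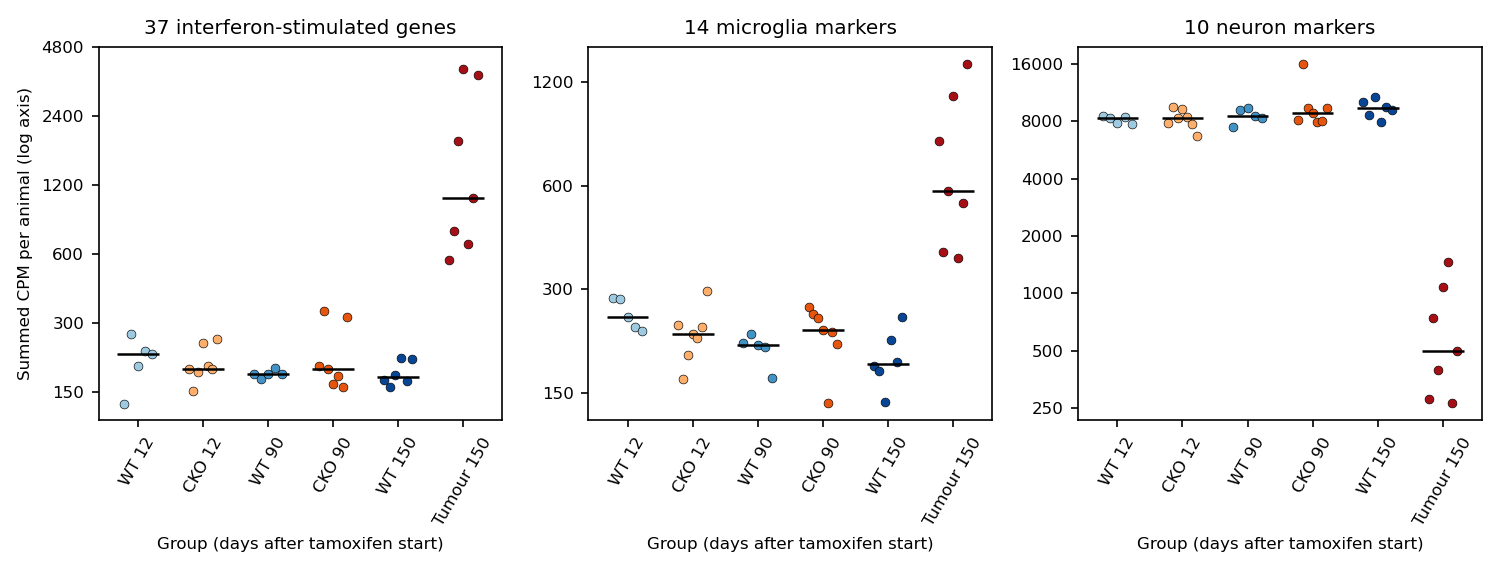
Summed CPM per animal on log axes for the 37 members (left), 14 microglia markers (middle) and 10 neuron markers (right), with a point for each animal and a line at each group's median. All 7 tumours lie above the other 30 animals for members (565 to 3851 against 134 to 337) and microglia markers, and below them for neuron markers.

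Other genes of the pathway were followed from the receptors downwards. The median log2 difference between tumours and wild type at 150 dpi was 0.955 over 6 receptor subunits, 1.00 over 9 signalling genes, 2.11 over 11 sensing genes and 0.82 over 8 genes that restrain the response, beside 3.40 over the members. Of the 6 interferon receptor subunits, 4 rose: Ifngr2 by 1.27, Ifngr1 by 1.17, Ifnar2 by 0.74 and Ifnar1 by 0.47 on the log2 scale. Of the 9 signalling genes, 5 rose and 2 fell. Irf8, a factor of myeloid cells, rose by 3.95, whereas the kinases Jak1 and Jak2 fell by 0.32 and 0.60.

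Of the 11 genes of nucleic acid sensing, 7 rose, led by Mb21d1 (4.44), which encodes the DNA sensor cGAS, Tlr7 (2.97) and Tmem173 (2.93), which encodes STING. Of the 8 restraining genes, 3 rose (Ptpn6 by 3.30, Socs3 by 2.95 and Samhd1 by 1.33) and 2 fell. Among 8 genes tied to interferon gamma or to antigen presentation, all 7 that could be tested rose, with Nlrc5 at 5.63, Igtp at 4.23 and Irgm1 at 3.98. The chemokine Cxcl10 lay at 2.55, 34.1 and 145.7 CPM in tumours and reached at most 0.0948 CPM in wild type at 150 dpi.

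Interferon transcripts themselves were scarcely seen. Of 11 interferon genes in the table, 5 had no count in any animal and none passed the filter. Ifnb1 had 26 counts in 1 tumour and 4 in 1 wild-type animal at 150 dpi, and Ifng had 23 counts, all in 2 tumours. Ifnk had 124 counts over 26 animals, 21 of them in 6 tumours, and Ifna1, Ifna4 and Ifne had 1, 2 and 3 counts. The 7 tumours held about 132800000 counts together, and a count of 0 there allows up to 3 counts of that total, so differences in these ligands were not detectable at this depth.

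In the edgeR model of all 37 animals, none of the members was called in any comparison without tumours. In simulated data for tumours against wild type at 150 dpi, the model recovered 17 of 50 genes changed 2-fold. Differences of that size could therefore be missed. For CKO against wild type at 12 dpi the model called 0 members, and 0.0183% of all genes were called. DESeq2 also called 0, and 2 members had an unadjusted p under 0.05. The median over the members was -0.14 against 0.04 over all genes. Rsad2 lay at 1.44 to 6.38 CPM in wild type and 0.418 to 3.19 CPM in CKO, a log2 difference of -1.45 (SE 0.55, adjusted p = 0.970), and Parp9 differed by -0.94 (adjusted p = 1.00). At 90 dpi the model called 0 members and 0.0489% of all genes, DESeq2 called 0, and 2 members had an unadjusted p under 0.05. The median was 0.28 against 0.02. Oas1a (1.80, SE 0.83, adjusted p = 0.944) and Ifi27 (0.69, SE 0.38, adjusted p = 1) followed Xaf1 in that order.

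Xaf1, which encodes an interferon-induced factor linked to cell death, had the smallest p in both comparisons. At 12 dpi its level was 2.41, 6.85, 3.62, 4.03 and 1.82 CPM in the 5 wild-type animals and 2.38, 10.9 and 15.3 CPM in CKO (lowest, median and highest of 7). Only CKO_22017 lay within the wild-type range, and the log2 difference was 1.501 (SE 0.43, adjusted p = 0.615). At 90 dpi it was 0, 2.84, 3.18, 4.13 and 3.00 CPM in wild type, with the 0 in shallow WT_21167. The 7 CKO animals of 90 dpi held 6.86 to 12.3 CPM (median 10.6), all above every wild-type animal, which held for no other member and for 0.404% of all genes tested. The log2 difference was 1.66 (SE 0.44, adjusted p = 0.382), and 1.65 without WT_21167.

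The call for Xaf1 turned on the samples in the model. When only the 90 dpi groups were fitted, it was called (log2 difference 1.64, adjusted p = 0.0329), and DESeq2 gave an adjusted p of 0.0596. The share of all genes that this smaller fit called is not given here, so the call is a description only. In wild type at 150 dpi Xaf1 lay at 2.16 to 4.50 CPM and in tumours at 14.4, 33.3 and 137.1 CPM. Xaf1 lies on chromosome 11 (72301629 to 72313733), 2.71 Mb from Trp53 and 7.03 Mb from Nf1, the 2 genes deleted in these animals. The part of this linkage in its level was not tested.

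**Figure D4:**
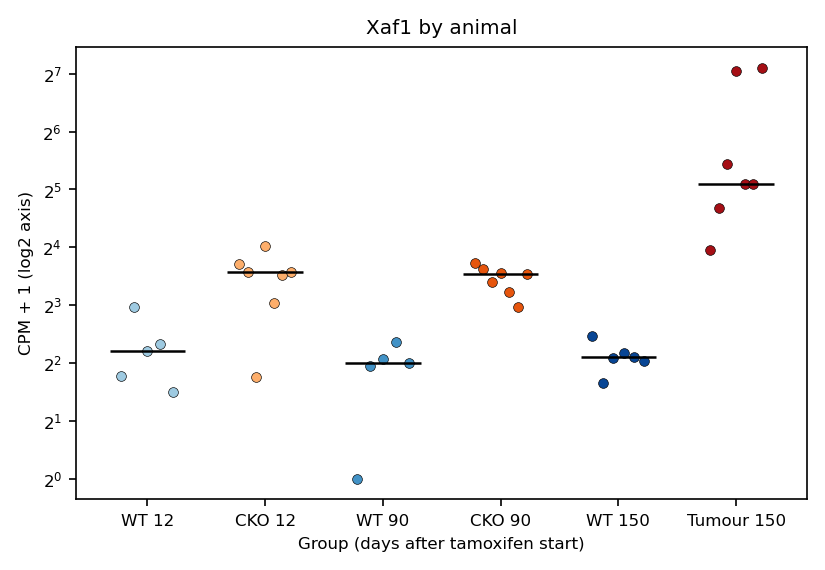
Xaf1 level per animal as CPM + 1 on a log2 axis, by group, with a line at each group's median. The 7 CKO animals of 90 dpi (6.86 to 12.3 CPM) lie above the 5 wild-type animals of the same time, and the tumours (14.4 to 137.1 CPM) lie above both.

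Time was compared within each genotype. In CKO cells at 90 against 12 dpi, 0 members and 0% of all genes were called by edgeR, 0 members by DESeq2, and 1 member had an unadjusted p under 0.05. Ifi27 (0.68), Ifitm3 (-0.92) and Ifi35 (-0.89) had the smallest p, each with an adjusted p of 1.00. In wild type at 90 against 12 dpi, 0 members and 0.00612% of all genes were called, 0 by DESeq2 and 1 unadjusted. Ifi44 differed by -2.39 (SE 0.89, adjusted p = 0.920), Gbp2 by -1.39 and Oas2 by -2.08 (adjusted p = 1 for both). In wild type at 150 against 90 dpi, 0 members and 0.0183% of all genes were called, 0 by DESeq2 and 2 unadjusted. Zbp1 (2.99, SE 1.09, adjusted p = 0.569), Irf7 (-1.77, SE 0.76, adjusted p = 0.580) and Rsad2 (-0.90, adjusted p = 0.766) led. The change of the CKO effect from 12 to 90 dpi also gave 0 members, 0% of all genes, 0 by DESeq2 and 1 unadjusted, with Ifi44 (2.25), Oas1a (2.08) and Ifi27 (0.90) in front (adjusted p = 1 for each).

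The highest member sums outside tumours were those of CKO_20647 (337, or 287 without TMM scaling) and CKO_22212 (320, or 327 without it), both at 90 dpi, and their order depends on the scaling. CKO_20647 also had the highest neuron marker sum, 16010 CPM, and its 2 libraries gave member sums of 388 and 184 on their unscaled totals.

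The small libraries ask how the members vary between groups of 10 CKO cells before tumours. The 10-cell libraries held about 1639000 to 6489000 counts and the pool-and-split libraries 1907000 to 5161000, after amplification by PCR without molecular identifiers being named. Each time has 4 sets, named by sex and number, of 14 10-cell and 10 pool-and-split libraries, and what a set stands for is not given in the sources used here. Levels were tested on counts summed per set, so with 4 sets a group.

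Most members were detected in a minority of libraries. At 12 dpi the median member had a count in 28.6% of the 10-cell libraries and in 27.5% of the pool-and-split ones, and at 90 dpi in 39.3% and 27.5%. Members found in at least 50% of libraries numbered 9, 10, 12 and 10 in that order. A library held a median of 12.5 members in 10-cell and 14 in pool-and-split libraries at 12 dpi, and 18 and 14 at 90 dpi. The genes detected in all moved the same way, with medians of 7496, 8652, 10070 and 8686, and their part in the detection of members was not tested. The members seen most widely were Stat2, Ddx58, Eif2ak2, Ifitm3, Dtx3l, Ifi27 and Lgals3bp, which passed 50% in all 4 kinds of library.

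**Figure D5:**
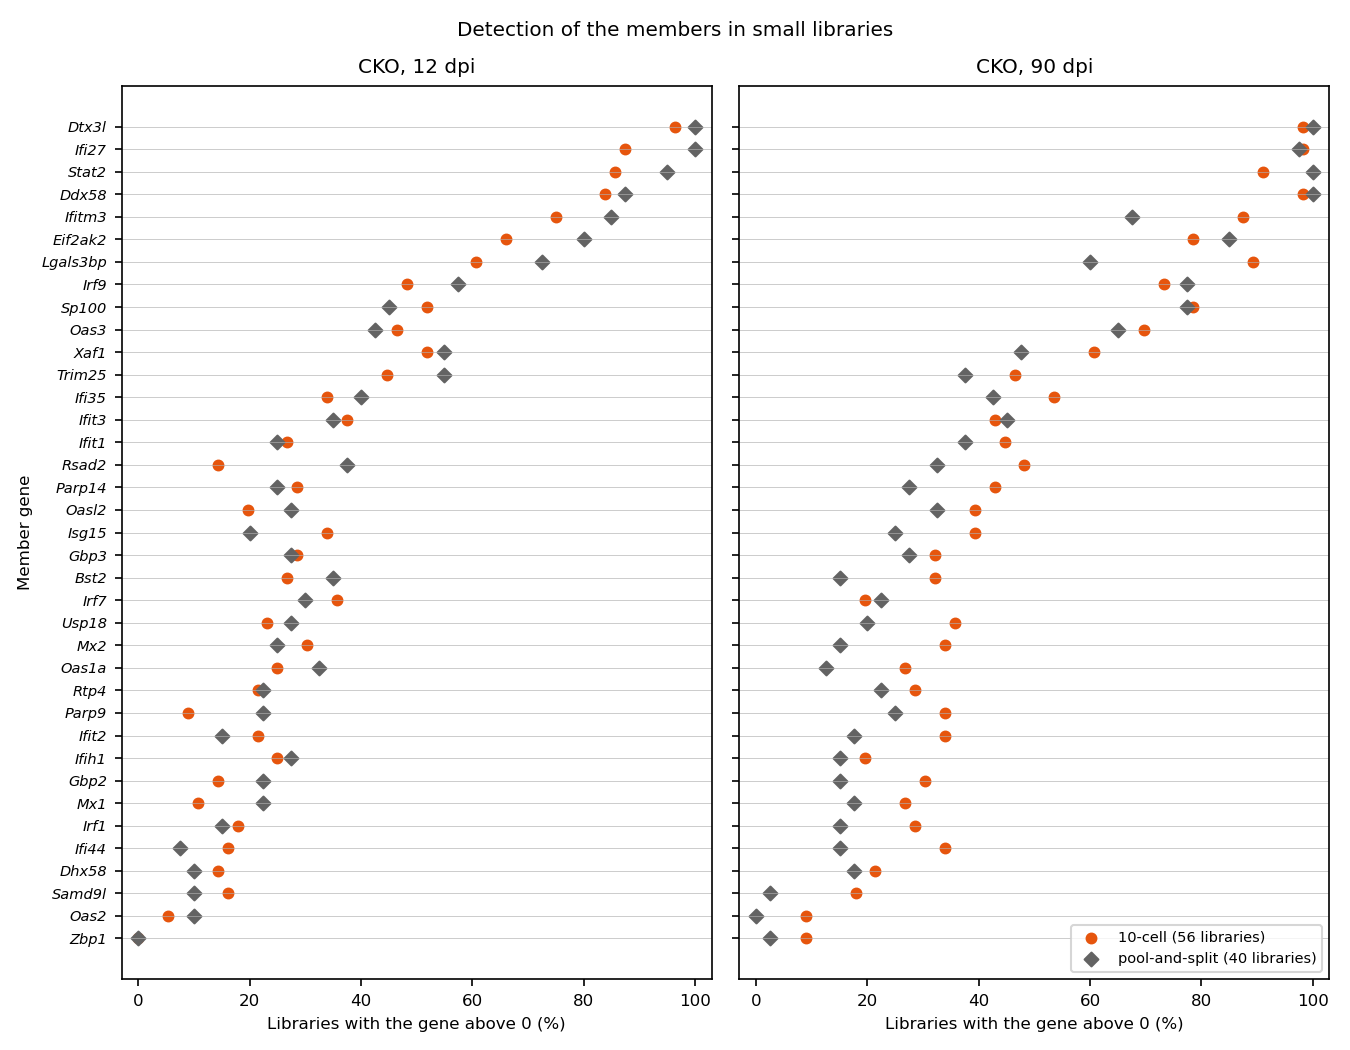
Share of libraries (%) with each member above 0, for 10-cell and pool-and-split libraries of CKO cells at 12 dpi (left) and 90 dpi (right). The median member reached 28.6% and 27.5% at 12 dpi and 39.3% and 27.5% at 90 dpi.

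Single libraries carried much of the signal. How often this held over all genes is not given here, so it is not read as particular to the members. More than 50% of a member's counts came from 1 library for 13 of 36 members with counts in 10-cell libraries at 12 dpi, 14 of 36 in pool-and-split libraries at 12 dpi, 7 of 37 in 10-cell libraries at 90 dpi, and 16 of 36 in pool-and-split libraries at 90 dpi. Ifit1 reached 2221 CPM in 10-cell library 39 of 12 dpi, which held 97.6% of its counts in that kind. Ifitm3 reached 3719 CPM in 10-cell library 95 of 12 dpi. Such peaks were not confined to 10-cell libraries: Ifi27 reached 2883 CPM in pool-and-split library 40 of 90 dpi.

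A few 10-cell libraries held many members at once. Library 93 of 90 dpi held 20 members at 10 CPM or more, among them Ifit3 (252 CPM), Oasl2 (213), Rsad2 (171), Isg15 (119), Oas1a (68.3), Usp18 (62.9), Irf7 (56.2) and Ifit1 (49.1). The median 10-cell library of that time held 6 members at that level, and no pool-and-split library of either time held more than 13. Library 93 also held 2150 CPM of microglia markers (median of its kind 647) and 10310 of oligodendrocyte markers (median 1823). Libraries 47 and 48 of 90 dpi held 18 members, library 1 of 12 dpi held 17 and library 92 of 90 dpi held 16. Endothelial markers summed to 3388 CPM in library 47 and 2830 in library 92, with a median of 569.6, and microglia markers to 127.5 in library 47. Libraries 47, 48, 92 and 93 all come from the second male set of 90 dpi. Over all genes, 5940 were at 10 CPM or more in library 93, 5045 in library 47, 8079 in library 48 and 5275 in library 92. The median 10-cell library of 90 dpi held 5086 such genes. Library 1 of 12 dpi held 7845 (median of its kind 3556), and no pool-and-split library held more than 6111. The part of other cell types, or of the number of genes seen, in these libraries was not tested.

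Levels were compared between the times and the kinds of small library, where edgeR called no member in any comparison and DESeq2 called 4 in each of 3. The shares of all genes below are those of edgeR. The share that DESeq2 called is not given here, so its counts are not read as a result about the members. For 10-cell libraries at 90 against 12 dpi, edgeR called 0 of 35 members tested and 0% of 14496 genes, DESeq2 called 0, and 3 members had an unadjusted p under 0.05. Ifitm3 averaged 66.8 against 188 CPM (log2 difference -1.75, SE 0.66, adjusted p = 0.667), Oas1a 9.51 against 29.2 CPM and Rtp4 2.88 against 8.51 CPM. Library 40 held 66.9% of the Rtp4 counts in 10-cell libraries at 12 dpi. For pool-and-split libraries over the same times, edgeR called 0 of 31 members and 0% of 13402 genes, with 4 unadjusted. Lgals3bp averaged 7.14 against 66.7 CPM (log2 difference -2.94, SE 0.92, adjusted p = 0.596), Rtp4 9.46 against 0.432 CPM and Trim25 2.50 against 16.5 CPM. Library 86 held 58.0% of the Lgals3bp counts at 12 dpi in this kind, and the medians of Lgals3bp were 0.936 against 3.61 CPM. DESeq2 called 4 members here, which were Trim25, Gbp2, Rtp4 and Lgals3bp.

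Between 10-cell and pool-and-split libraries at 12 dpi, edgeR called 0 of 37 members and 0% of 15385 genes, with 4 unadjusted, and DESeq2 called 4 (Sp100, Ifi44, Rtp4 and Ifit2). Ifi44 averaged 2.36 against 0.0227 CPM (adjusted p = 0.562), Rtp4 8.51 against 0.432 CPM and Sp100 12.3 against 2.06 CPM. At 90 dpi, edgeR called 0 of 37 members and 0% of 15385 genes, with 7 unadjusted, and DESeq2 called 4 (Trim25, Oas2, Rtp4 and Lgals3bp). Lgals3bp averaged 62.3 against 7.14 CPM (log2 difference 2.96, SE 0.79, adjusted p = 0.641), Trim25 18.1 against 2.50 CPM and Zbp1 3.64 against 0.0717 CPM. For Ifi44 at 12 dpi, 73.5% of the 10-cell counts came from library 52, and for Zbp1 at 90 dpi 74.1% came from library 61. For Rtp4 at 12 dpi, 66.9% of the 10-cell counts came from library 40.

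The spread between libraries was compared as the mean absolute deviation of log2(CPM + 1) from the set median, for genes found in at least 50% of all libraries of a time, with libraries as units although those of a set are related. Pool-and-split libraries share their pool of cells, so that their spread is that of the measurement. At 12 dpi limma called 0 of 9 members tested, where 0.0254% of 7874 genes were called and 0 members had an unadjusted p under 0.05. Dtx3l (difference in deviation 0.40, SE 0.20, adjusted p = 0.527), Ifitm3 (0.70) and Ifi27 (0.51) came first. At 90 dpi 0 of 11 members were called, where 0.621% of 9658 genes were called and 2 members had an unadjusted p under 0.05. Lgals3bp (0.92, SE 0.31, adjusted p = 0.135), Stat2 (0.59, SE 0.29, adjusted p = 0.351) and Ddx58 (0.24) came first. The median difference over the members tested was 0.33 at 12 dpi and 0.01 at 90 dpi, against 0.16 and -0.06 over all genes tested.

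The members detected widely enough to be compared did not clearly move together across small libraries. Isg15, Ifit1, Ifit3, Oasl2, Rsad2, Usp18 and Irf7 were too sparse to be among them. The median rank correlation between pairs of members found in at least 50% of libraries was 0.15 in 10-cell libraries at 12 dpi (n = 56 libraries, 9 members) and 0.10 at 90 dpi (n = 56, 12 members), against 0.18 and 0.07 over all gene pairs. In pool-and-split libraries it was -0.02 at 12 dpi and 0.10 at 90 dpi, against 0.05 and 0.06. All pairs share the depth and complexity of their libraries, and correlations this weak in sparse counts are no finding.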

How the data were processed

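The deposited table holds expected counts per gene and library that the authors estimated with RSEM after alignment with Bowtie2 to GRCm38, per the submitters' processing notes; their versions and the strand setting are not given in the sources used here. Bulk RNA was amplified linearly with T7, and small libraries were amplified by PCR and cut with Nextera XT, per the labels' protocols. Replicate libraries of an animal were summed, rounded to whole numbers, and given as CPM of the animal's TMM-scaled total. Single and small libraries were given as CPM of their unscaled totals. Spike-in rows (92) were left out.

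Members and lists were chosen with earlier results of these data known. All 37 animals entered 1 edgeR 4.0.16 quasi-likelihood fit (R 4.3.3, TMM scaling, group and sex, filterByExpr with a minimum count of 10 and total of 15), with Benjamini-Hochberg adjustment over 16349 genes and calls at 0.05. Small libraries were summed per set and fitted likewise, and spread was tested with limma 3.58.1 on log2(CPM + 1). DESeq2 1.42.0, RLE scaling, other filters, no sex term, the deepest library per animal, only the groups compared and leaving out each animal or set were alternatives. The rounding order and CPM without TMM scaling were added as alternatives after the data were seen. Values are printed, in tumour comparisons, for the member of each role group with the highest mean and the one with the largest change, and otherwise for the 3 members with the smallest p. Other members are named after their values were seen. Nearest copies were found with BLAST 2.17.0+ on GENCODE transcripts. The models were tested on simulated data. For tumours against wild type at 150 dpi, 17, 39, 41 and 46 of 50 genes changed 2-, 4-, 8- and 16-fold were recovered, with 3 false calls. The spread test at 12 dpi recovered 130 of 200 changed genes, with 5 false calls. The labels name bulk animals but do not say what a small-library set is, so p-values over sets measure only the spread between them. The values of 1 gene of the signalling list are not reported here.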

Additional observations from a re-analysis of the deposited data

Results flagged for a closer look

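In 20 of 228 combinations of a group of 4 to 10 animals with 1 of the 37 members or their sum, the highest or lowest animal stood apart on log2(CPM + 1) by Dixon's criterion, which chance alone meets in about 1 in 20 groups. Of these, 8 fell on WT_21167 of 90 dpi, the shallowest library: Irf9, Ddx58, Ifitm3, Parp14, Xaf1 and Sp100 were at 0 CPM there, Usp18 at 10 CPM and Lgals3bp at 30.0 CPM. In CKO animals of 12 dpi, Irf1 was high in CKO_22017 (12.8 CPM) and Ifit3 was at 0 in CKO_21725. In CKO animals of 90 dpi, Ifih1 (1.22 CPM) and Gbp3 (0.243 CPM) were low in CKO_22149, Ifit3 was low in CKO_22154 (1.14 CPM), and Mx2 was high in CKO_22212 (10.5 CPM). In wild type, Zbp1 (7.00 CPM) and Oas2 (0.823 CPM) were high in WT_22064 at 150 dpi, Oas2 was high in WT_22254 at 90 dpi (0.361 CPM), Ifitm3 (4.52 CPM) and Ifi44 (0.0963 CPM) were low in WT_22056 at 12 dpi, and Isg15 was at 0 in WT_21592 at 150 dpi.

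The genotype effect differed between times by the test of the difference itself (edgeR quasi-likelihood, Benjamini-Hochberg adjustment). For 33 members it was larger for tumours at 150 dpi than for CKO cells at 90 dpi. In each role group the largest log2 difference of the effects was that of Irf7 (5.14), Ifih1 (3.23), Oas3 (4.59), Ifit1 (3.60), Gbp3 (4.76), Rsad2 (4.75), Isg15 (4.40), Parp9 (3.45) or Rtp4 (4.71).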

How the results depend on the processing

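The number of members called stayed within 1.5 times the reported one in 464 of 475 combinations of a comparison and an alternative, and no member changed direction in a called comparison (5767 values, 65 losing and 12 gaining a call). Requiring a mean of 10 CPM left 20 members to test. All 20 were called in tumours against wild type, in tumours against CKO at 90 dpi and in the difference of the effects. That mean was taken over all animals, tumours included, so members could pass through the tumours alone. These calls are therefore a description, and the share of all genes called is not given here. Fitting only the groups compared called 1 member, Xaf1, at 90 dpi. DESeq2 called 4 members in pool-and-split libraries over time, 4 between the kinds of small library at 12 dpi and 4 at 90 dpi. Its share of all genes called is not given here. Taking each library as a replicate called 1 in 10-cell and 1 in pool-and-split libraries over time. For spread at 90 dpi, a pseudocount of 5 called 1 and deviations from the mean 1, each time Lgals3bp. The cause of these changes in calls was not tested. Shares of all genes called are also not given here for the groups compared alone, for libraries as replicates or for these spread alternatives. Their counts are not read as results about the members. Leaving out each animal gave 36 to 37 members for tumours against wild type, 35 to 37 against CKO and 30 to 35 for the difference of the effects. In every other comparison, leaving out each animal or set gave 0 to 0. With the set, or its sex and number, as a replicate block, 0 members were called in each small-library comparison. Sets of the same number correlated by -0.04 to 0.02 over time and the 2 kinds of a set by 0.02 to 0.11, so the numbers are not taken as pairs. RLE scaling moved the median of all genes between tumours and wild type from 0.10 to 0.22. Shallow animals and sparse small libraries limit what can be seen of members below a few CPM.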
